A study of Mus musculus with 7 samples.

Results

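The genes described here encode peroxidases and other antioxidant enzymes, 10 genes listed by symbol: the glutathione peroxidases Gpx1 and Gpx4, the peroxiredoxins Prdx1, Prdx2 and Prdx5, the thioredoxin Txn1, the superoxide dismutases Sod1 and Sod2, the quinone reductase Nqo1 and the glutathione synthesis subunit Gclm. They were found through the gene symbols of the array's probe annotation, which named 19505 genes in all. A probe set was named for 9 of the 10, 1 for each gene, and Prdx5 was not analysed here. Expression was measured on 1 array per sample in brain cells sorted as microglia by surface CD45 and CD11b, with dead cells left out by a dye. The study set 4 samples of 5xFAD;B2m-/- mice against 3 samples of 5xFAD;B2m+/+ mice. All 7 came from the C57BL/6 strain and all carried the 5xFAD transgenes, which drive amyloid plaque formation in the brain, so both genotypes are plaque models and no plaque-free mice are included. B2m encodes the small subunit that MHC class I needs to reach the cell surface, and is missing from every cell of a germline knockout. Age and sex, and whether the samples were separate or pooled animals, were not given in the labels used here, so the p-values rest on the variation among these 7 arrays alone, part of which may be technical.

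Cells make superoxide and hydrogen peroxide in mitochondrial respiration, and phagocytes such as microglia also make superoxide on purpose with the NADPH oxidase. Superoxide dismutases turn superoxide into hydrogen peroxide, and glutathione peroxidases and peroxiredoxins reduce that peroxide to water. Glutathione and thioredoxin supply the electrons, and the transcription factor NRF2 raises many of these genes under oxidative stress through a DNA motif called the antioxidant response element.

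The values were log2 expression made with RMA, a method of background correction, quantile normalization and probe summary. Differences are knockout minus wildtype on the log2 scale. The test covered the 10004 genes that exceeded the median level of the named genes on 3 or more arrays, and a gene was called at a limma adjusted p under 0.05 over all of them. B2m fell by 2.99 (SE 0.10, limma adjusted p = 1.54e-07), with 10.40, 10.56, 10.46 and 10.24 in knockout arrays against 13.42, 13.41 and 13.39 in wildtype arrays. The B2m probe set still read above the 95th percentile of the array's negative controls in all 7 arrays, knockout arrays included. The label of the sorted cells was checked against microglial markers, and all 11 named ones, such as P2ry12, Tmem119 and Cx3cr1, exceeded, in every array, a background level set at the 95th percentile of the array's negative controls. All 5 named T cell, 7 astrocyte and 6 oligodendrocyte markers and 5 of 6 neuronal markers stayed below it in every array. Other cell types were not all absent. In every array, 5 of 13 endothelial and mural, 3 of 7 neutrophil, 2 of 7 border macrophage and 1 of 6 neuronal markers exceeded it.

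Of the 9 antioxidant genes with a probe set, 7 passed the filter and did so in all 7 arrays. None of the 7 was called, where 0.05% of all tested genes were. All 7 had higher means in knockout microglia, against 48.6% of all tested genes with a difference above 0. Their median difference was 0.15, and the median over all tested genes was -0.0055. At an unadjusted p under 0.05, 2 of the 7 were higher (Gpx4 and Txn1), against 8.39% of all tested genes, and 0 of the 7 were lower, against 3.54%. The groups did not overlap for 1 of the 7, Txn1, where all knockout arrays lay above all wildtype arrays in 7.10% of tested genes. In these bulk samples, fewer cells of a type and less RNA per cell cannot be told apart.

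**Figure D1:**
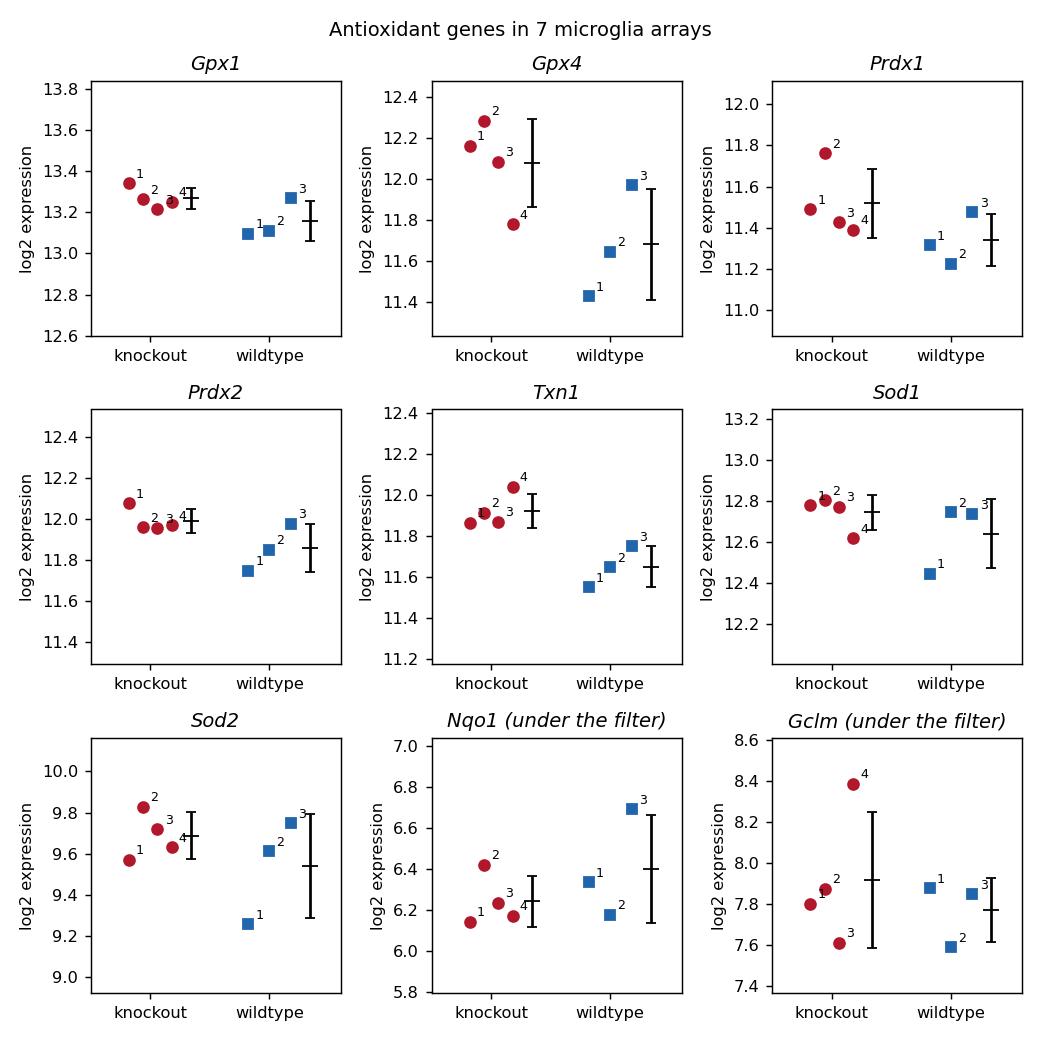
Log2 expression of the 9 antioxidant genes with a named probe set, with 4 knockout arrays (circles) left of 3 wildtype arrays (squares) in each panel. The small digits are replicate numbers, the black marks are the mean and SD, and every panel spans the same log2 range around its own centre. Only for Txn1 do all knockout arrays lie above all wildtype arrays.

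Gpx4 (Entrez gene 625249) reduces lipid peroxides in membranes and is known as the main brake on ferroptosis, a form of cell death driven by lipid peroxidation. Its log2 values were 12.16, 12.28, 12.08 and 11.78 in knockout arrays, against 11.43, 11.65 and 11.97 in wildtype arrays. The groups overlapped, because knockout replicate 4 lay below wildtype replicate 3. The mean was 12.08 ± 0.21 (SD, n = 4) in knockout and 11.68 ± 0.27 (SD, n = 3) in wildtype microglia. The difference of 0.40 (SE 0.15) corresponds to 1.31-fold, with a 95% confidence interval of 1.04 to 1.67-fold, and it did not pass in limma (unadjusted p = 0.0274, adjusted p = 0.381). Over 18 alternatives the limma adjusted p ran from 0.172 to 0.999.

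Gpx1 (Entrez gene 14775) is the abundant cytosolic glutathione peroxidase and, like Gpx4, carries selenocysteine in its active site. It had 13.34, 13.26, 13.21 and 13.25 in knockout arrays, against 13.10, 13.11 and 13.27 in wildtype arrays. Wildtype replicate 3 lay among the knockout arrays, above 3 of the 4. The difference was 0.11 (SE 0.096, limma adjusted p = 0.685), and its 95% interval ran from 0.93 to 1.25-fold.

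Txn1 (Entrez gene 22166) encodes cytosolic thioredoxin, which passes electrons to peroxiredoxins and to ribonucleotide reductase. It had 11.86, 11.91, 11.87 and 12.04 in knockout arrays, against 11.55, 11.65 and 11.75 in wildtype arrays. The lowest knockout array lay above the highest wildtype array. The means were 11.92 ± 0.082 (SD, n = 4) in knockout and 11.65 ± 0.10 (SD, n = 3) in wildtype microglia, a difference of 0.27 (SE 0.099) or 1.21-fold with a 95% interval of 1.04 to 1.41-fold. In limma it did not pass over all genes (unadjusted p = 0.0207, adjusted p = 0.356). Knockout replicate 4, which had the highest Txn1, also had the highest mean level of the 7 named neutrophil markers, such as S100a8 and S100a9. That mean was 11.69 there, 9.59 to 10.99 in the other knockout arrays and 9.70 to 10.43 in wildtype arrays. The mean of the 5 named monocyte markers was also highest there, at 9.86, against 8.59 to 9.08 in the other knockout arrays and 8.25 to 8.87 in wildtype arrays. Without knockout replicate 4 the Txn1 difference was 0.23. Whether neutrophil or monocyte RNA adds to the Txn1 values was not tested.

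Peroxiredoxins reduce peroxides with a reactive cysteine that thioredoxin then restores. Prdx1 (Entrez gene 18477), a cytosolic and nuclear member, had 11.49, 11.76, 11.43 and 11.39 in knockout arrays, against 11.31, 11.22 and 11.48 in wildtype arrays. Knockout replicate 2 stood highest, and wildtype replicate 3 lay above 2 knockout arrays. The difference was 0.18 (SE 0.12, limma adjusted p = 0.572), and without knockout replicate 2 it was 0.098. Prdx2 (Entrez gene 21672), a cytosolic member that is very abundant in red cells, had 12.08, 11.96, 11.96 and 11.97 in knockout arrays, against 11.75, 11.85 and 11.98 in wildtype arrays. Wildtype replicate 3 again lay among the knockout arrays, and the difference was 0.13 (SE 0.098, limma adjusted p = 0.624). It was 0.0765 without wildtype replicate 1. Of 8 listed erythroid markers only 3 had a named probe set, and the globin genes Hba-a1, Hbb-bs and Hbb-bt had none. The mean level of the 3 ran from 8.22 to 8.71 in knockout and from 8.39 to 8.60 in wildtype arrays. Among the 3, Alas2 and Klf1 stayed below the 95th percentile of the negative controls in every array. The part of red cell RNA in the Prdx2 values was not tested.

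Sod1 (Entrez gene 20655) encodes the cytosolic copper and zinc superoxide dismutase. It had 12.78, 12.80, 12.77 and 12.62 in knockout arrays, against 12.45, 12.75 and 12.74 in wildtype arrays. Wildtype replicate 1 was the lowest array, and the other 2 wildtype arrays lay within the knockout range. The difference was 0.10 (SE 0.11, limma adjusted p = 0.747), with a 95% interval of 0.91 to 1.27-fold. It rested on wildtype replicate 1, without which it was 0.00476, and it was 0.0371 with each array's trend on genomic gene span removed. Sod2 (Entrez gene 20656), the mitochondrial manganese enzyme, had 9.57, 9.83, 9.72 and 9.63 in knockout arrays, against 9.26, 9.61 and 9.75 in wildtype arrays. Here too the groups overlapped, with wildtype replicate 1 the lowest array and wildtype replicates 2 and 3 within the knockout range. In wildtype replicate 1 the Sod2 value lay under the 95th percentile of the negative controls. The Sod2 difference was 0.15 (SE 0.13, limma adjusted p = 0.684). Leaving out wildtype replicate 1 gave 0.00811, and leaving out wildtype replicate 3 gave 0.254.

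**Figure D2:**
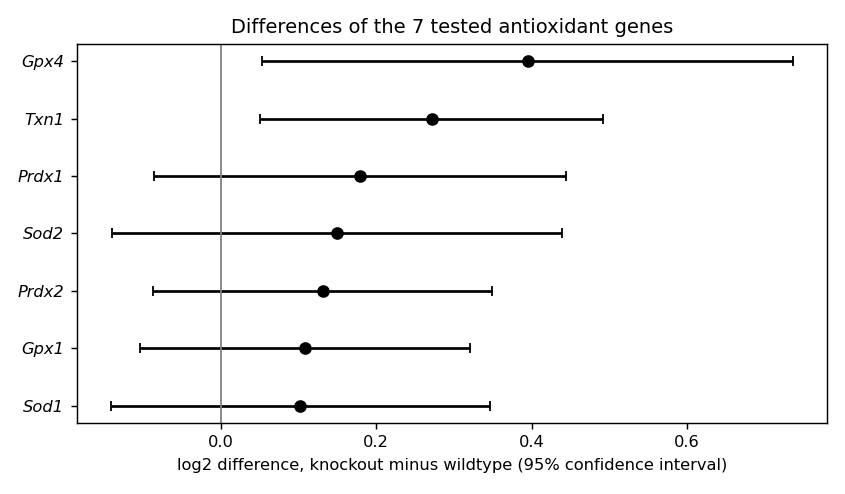
Log2 differences, knockout minus wildtype, of the 7 tested antioxidant genes with 95% confidence intervals from limma over 7 arrays. All 7 points lie above 0, from 0.10 for Sod1 to 0.40 for Gpx4, and only the intervals of Gpx4 and Txn1, unadjusted for the number of genes, leave out 0.

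The NRF2 targets Nqo1 and Gclm were dim and did not pass the filter. Nqo1 (Entrez gene 18104) encodes a quinone reductase. It had 6.14, 6.42, 6.24 and 6.17 in knockout arrays, against 6.34, 6.18 and 6.69 in wildtype arrays. Among the negative control rows these values ranked at 46.2% to 60.5%, which is background level, and the groups overlapped (exact permutation test over 35 regroupings, two-sided p = 0.371). Gclm (Entrez gene 14630) encodes the modifier subunit of glutamate-cysteine ligase, the first enzyme of glutathione synthesis. It had 7.80, 7.88, 7.61 and 8.39 in knockout arrays, against 7.88, 7.59 and 7.85 in wildtype arrays, all under the 95th percentile of the negative controls. Only knockout replicate 4 stood above the rest (exact permutation test, two-sided p = 0.686). That array also had the highest neutrophil marker level, and the part of neutrophil RNA in its Gclm value was not tested. The smallest p that 35 regroupings allow is 0.0286.

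Promoters of the listed genes were searched for the antioxidant response element. Promoter sequences of RefSeq on build GRCm38.p6, from 250 bases before to 50 after each start, were held for all 10 genes, 13 promoters in all. The search covered both strands for the core TGACNNNGC, where N is any base. The core was found in 3 of the 13 promoters, those of Gclm, Prdx1 and Sod1, against 12.4% of all 32851 promoters of that length. The sites are shown because they are the matches among the listed genes, each 33 bases long in the direction of the gene. The capitals mark the core, which in all 3 lies on the opposite strand and so reads in reverse complement.
Gclm: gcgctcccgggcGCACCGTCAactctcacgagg
Prdx1: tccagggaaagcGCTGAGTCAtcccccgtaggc
Sod1: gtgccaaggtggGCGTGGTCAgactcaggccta
The Gclm site lies at chr3:122245411-122245443, with the first base of its core at -134 from the start. The Prdx1 site lies at chr4:116685454-116685486, with its core from -133. The Sod1 site lies at chr16:90220694-90220726, with its core from -56. All 3 windows are on the plus strand and upstream of the annotated start. The Prdx1 core overlaps an AP-1 site, TGANTCA, a motif present in 7.81% of all promoters. These letter matches describe the sequence and show no binding. Of the 3 genes, Prdx1 and Sod1 differed by 0.18 and 0.10 without passing, and Gclm lay under the filter on dim genes. The promoters of the other listed genes, Gpx1, Gpx4, Nqo1, Prdx2, Prdx5, Sod2 and Txn1, hold no match in these windows, although Nqo1 is an NRF2 target. Whether matches go with the differences was not tested. The Txn1 promoter, at chr4:57956362-57956661 on the minus strand, is shown whole because Txn1 was the member whose groups did not overlap.
Txn1: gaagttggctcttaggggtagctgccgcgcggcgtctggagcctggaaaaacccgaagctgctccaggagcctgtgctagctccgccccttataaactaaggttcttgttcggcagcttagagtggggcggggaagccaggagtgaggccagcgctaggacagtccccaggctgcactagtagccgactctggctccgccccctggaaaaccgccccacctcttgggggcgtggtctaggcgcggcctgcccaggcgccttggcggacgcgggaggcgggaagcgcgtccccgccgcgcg

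The same arrays tended to be lowest or highest for several members. Wildtype replicate 1 was the lowest of the 7 arrays for 6 of the 7 tested members, and wildtype replicate 2 was the lowest for the other, Prdx1. Knockout replicate 2 was the highest for Gpx4, Prdx1, Sod1 and Sod2. Knockout replicate 1 was the highest for Gpx1 and Prdx2. The median over the 7 members of the log2 value minus the gene's mean over all arrays was 0.080, 0.11, 0.063 and 0.0075 in knockout arrays, against -0.25, -0.11 and 0.043 in wildtype arrays. Wildtype replicate 3 thus lay above knockout replicate 4, and the groups overlapped. Leaving out wildtype replicate 1 gave a median difference of 0.078 in place of 0.15, and leaving out wildtype replicate 3 gave 0.25. Without wildtype replicates 1 and 2 together it was 0.013, with 5 of the 7 genes above 0 and 1 wildtype array left. The differences of Gpx4 and Txn1 were then 0.108 and 0.171.

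Markers of other cells and a trend with gene length also varied across these arrays. The mean level of the 13 endothelial and mural markers was 9.80 and 9.87 in wildtype replicates 1 and 2, the arrays lowest in the antioxidant genes. It was 9.21 to 9.30 in knockout arrays and 9.06 in wildtype replicate 3. Of the 13, 6 stayed below the 95th percentile of the negative controls in every array, among them Tek and Pdgfrb, and 5 exceeded it in every array. All 13 had differences below 0, with a median of -0.22, where 48.6% of all tested genes had differences above 0. At an unadjusted p under 0.05, 4 of the 13 were lower, against 3.54% of all tested genes, and 0 were called. The 7 border macrophage markers averaged 8.91 to 9.04 in knockout and 8.79 to 9.28 in wildtype arrays. Across tested genes, which are not independent replicates, each array's deviations correlated with genomic gene span, with a Spearman rho of -0.24, -0.25, -0.20 and 0.22 in knockout arrays and 0.36, 0.14 and -0.15 in wildtype arrays. With this span trend removed, the median difference of the 7 members was 0.10. Single members moved further, since the difference was 0.0296 in place of 0.11 for Gpx1, 0.0371 in place of 0.10 for Sod1 and 0.0639 in place of 0.13 for Prdx2. It was 0.347 for Gpx4 and 0.233 for Txn1. Heat shock genes, which respond to protein stress and to handling of cells, ran the other way in wildtype replicate 1. Their array medians were 0.035, -0.091, -0.29 and 0.019 in knockout arrays, against 0.31, -0.044 and 0.10 in wildtype arrays. Of 12 tested, 2 had differences above 0, against 48.6% of all tested genes, and 10 had differences below 0, with a median of -0.19. At an unadjusted p under 0.05, 2 of the 12 were lower, against 3.54% of all tested genes. None was called, with a lowest limma adjusted p of 0.343, and their part in the antioxidant differences was not tested. The part of endothelial RNA in the antioxidant differences was not tested. Leaving out wildtype replicates 1 and 2 cannot single it out, because the same arrays had the positive span correlations among wildtype arrays.

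**Figure D3:**
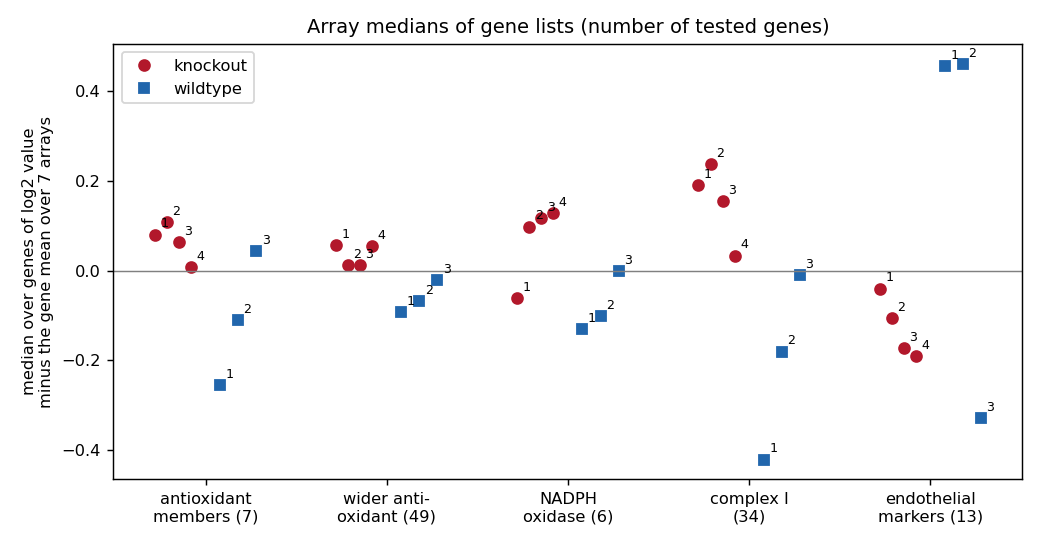
Array medians of 5 gene lists, as the median over tested genes of the log2 value minus the gene's mean over 7 arrays, with knockout arrays (circles) left of wildtype arrays (squares) and replicate numbers beside the points. Wildtype replicate 1 is lowest for the antioxidant members at -0.25 and for complex I at -0.42, while wildtype replicates 1 and 2 are highest for endothelial markers.

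Likeness to other genes was measured as the root mean square distance between a gene's 7 mean-centred values and the members' mean profile. The 4 nearest of the tested genes outside the list were Rpl8 at 0.022, Cox7c at 0.031, Cbr1 at 0.033 and Rpl31 at 0.034 log2 units. Rpl8 and Rpl31 encode ribosomal proteins, Cox7c a cytochrome c oxidase subunit and Cbr1 a carbonyl reductase. Rpl8 had 12.93, 13.02, 12.91 and 12.83 in knockout arrays, against 12.60, 12.76 and 12.84 in wildtype arrays. Respiratory complex I, a main site of superoxide production, was set beside the antioxidant genes. All 34 tested subunits had differences above 0, against 48.6% of all tested genes, with a median of 0.37. At an unadjusted p under 0.05, 26 of the 34 were higher, against 8.39% of all tested genes. None of the 34 was called, with a lowest limma adjusted p of 0.183. The complex I median was 0.26 without wildtype replicate 1 and 0.17 with wildtype replicate 3 as the sole wildtype array. The difference between the complex I and antioxidant medians was not tested.

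**Figure D4:**
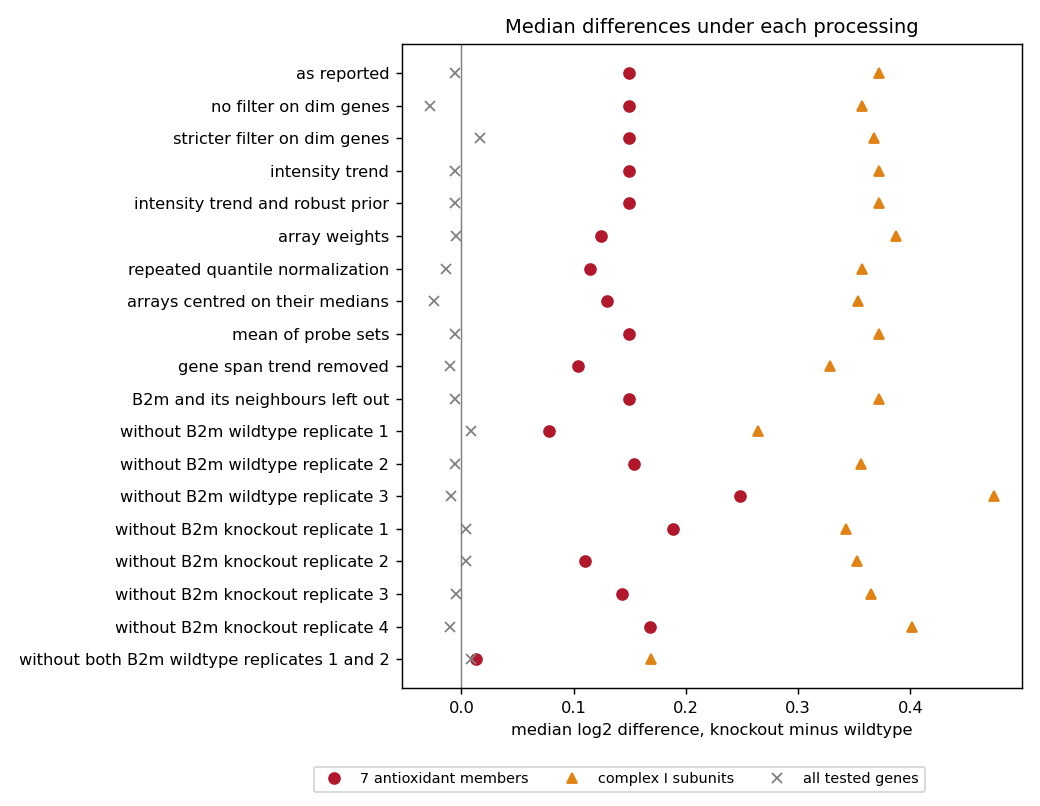
Median log2 difference, knockout minus wildtype, of the 7 antioxidant members (circles), the complex I subunits (triangles) and all tested genes (crosses) under the reported processing and each alternative. The member median lies between 0.013, without wildtype replicates 1 and 2, and 0.25, without wildtype replicate 3, while the median of all genes lies between -0.028 and 0.017.

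Wider antioxidant lists held 59 further genes in 5 groups, of which 49 were tested. Differences were above 0 for 32 of the 49, against 48.6% of all tested genes, with a median of 0.092. At an unadjusted p under 0.05, 8 of the 49 were higher, against 8.39% of all tested genes, and 0 were lower, against 3.54%. None was called, with a lowest limma adjusted p of 0.286. The median was 0.060 with the gene span trend removed and also 0.060 without wildtype replicates 1 and 2.

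The thioredoxin and glutaredoxin group had a median of 0.19 over 10 tested genes. At an unadjusted p under 0.05, 4 of the 10 were higher, against 8.39% of all tested genes, and 0 were lower, against 3.54%. All knockout arrays lay above all wildtype arrays for 3 of the 10, against 7.10% of all tested genes. Glrx, cytosolic glutaredoxin, had 8.77, 8.77, 8.73 and 8.88 in knockout arrays, against 8.59, 8.37 and 8.36 in wildtype arrays. The groups did not overlap, yet the difference of 0.35 (SE 0.10) did not pass (limma adjusted p = 0.315), and all values lay under the 95th percentile of the negative controls. Mitochondrial thioredoxin Txn2 differed by 0.42 (SE 0.14) and Glrx5, a mitochondrial glutaredoxin of iron-sulfur cluster assembly, by 0.28 (SE 0.12). Neither passed, and for both the knockout arrays lay above the wildtype arrays. Txn2 also stayed under the 95th percentile of the negative controls in every array, and Glrx5 exceeded it in 5 of the 7 arrays.

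Other selenoproteins and the genes that make them had a median of 0.20 over 11 genes. At an unadjusted p under 0.05, 3 of the 11 were higher, against 8.39% of all tested genes, and 0 were lower, against 3.54%. All knockout arrays lay above all wildtype arrays for 1 of the 11, against 7.10% of all tested genes. Pstk, a kinase in the synthesis of the selenocysteine transfer RNA that Gpx1 and Gpx4 need, had 9.74, 9.69, 9.35 and 9.92 in knockout arrays, against 9.01, 8.88 and 9.23 in wildtype arrays. The groups did not overlap, and the difference was 0.64 (SE 0.14, limma adjusted p = 0.286). All wildtype values and that of knockout replicate 3 lay under the 95th percentile of the negative controls. Selenos and Selenok, selenoproteins of the endoplasmic reticulum membrane, differed by 0.33 (SE 0.12) and 0.27 (SE 0.11) and did not pass.

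Glutathione synthesis, recycling and transferase genes had a median of 0.019 over 11 tested genes. Differences were above 0 for 6, against 48.6% of all tested genes, and below 0 for 5. At an unadjusted p under 0.05, 1 was higher, against 8.39% of all tested genes, and 0 were lower, against 3.54%. Mgst3, a membrane-bound glutathione transferase and peroxidase, differed by 0.54 (SE 0.16, limma adjusted p = 0.320). It was the 1 gene of the 11 with all knockout arrays above all wildtype arrays, against 7.10% of all tested genes. Mgst1 differed by 0.69 (SE 0.34) and Gstm1 by -0.30 (SE 0.15), both with overlap and neither passing. Each exceeded the 95th percentile of the negative controls in only 1 of the 7 arrays, and Mgst3 did so in 4. Mgst1 was highest in knockout replicate 4, at 9.59 against 7.99 to 8.52 in the other knockout arrays and 7.39 to 8.25 in wildtype arrays. That array had the highest neutrophil marker level, and the part of neutrophil RNA in Mgst1 was not tested.

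The remaining peroxide and superoxide enzymes had a median of 0.12 over 5 tested genes. At an unadjusted p under 0.05, 0 of the 5 were higher, against 8.39% of all tested genes, and 0 were lower, against 3.54%. Prdx4, the peroxiredoxin of the endoplasmic reticulum, differed by 0.26 (SE 0.13), catalase (Cat) by 0.18 (SE 0.12) and Ccs, the copper chaperone of Sod1, by -0.14 (SE 0.12). None of the 3 passed, and Ccs stayed under the 95th percentile of the negative controls in every array. NRF2 itself, its regulators and further targets had a median of 0.015 over 12 genes. Differences were above 0 for 7, against 48.6% of all tested genes, and 0 had an unadjusted p under 0.05. Taldo1 and Pgd, enzymes of the pentose phosphate pathway, differed by 0.18 (SE 0.11) and 0.24 (SE 0.15), and Osgin1 by -0.20 (SE 0.13), with limma adjusted p of 0.539 to 0.552. Osgin1 also stayed under the 95th percentile of the negative controls in every array.

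The phagocyte NADPH oxidase had 6 tested genes, all with differences above 0, against 48.6% of all tested genes. Their median was 0.16, against -0.0055 over all tested genes, and 0 had an unadjusted p under 0.05. The proton channel Hvcn1 differed by 0.25 (SE 0.13), the cytosolic subunit Ncf4 by 0.25 (SE 0.14) and the membrane subunit Cyba by 0.19 (SE 0.13), and none passed (limma adjusted p of 0.463 to 0.580). The array medians of these 6 genes, as deviations from each gene's mean, were -0.061, 0.098, 0.12 and 0.13 in knockout arrays, against -0.13, -0.10 and -0.0014 in wildtype arrays. Neutrophil markers had -0.61, -0.0074, 0.60 and 1.27 in knockout arrays, against -0.63, 0.096 and -0.58 in wildtype arrays. Among knockout arrays both lists stood lowest in replicate 1 and highest in replicate 4. Among wildtype arrays both stood lowest in replicate 1, but the NADPH oxidase genes stood highest in replicate 3 and the neutrophil markers in replicate 2. All 7 tested neutrophil markers and 3 of 4 tested monocyte markers had differences above 0, against 48.6% of all tested genes. Their medians were 0.66 and 0.72. The part of neutrophil and monocyte RNA in the NADPH oxidase values was not tested. The NADPH oxidase median was 0.099 without knockout replicate 4 and 0.058 without wildtype replicates 1 and 2.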

How the data were processed

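Each deposited value is a log2 expression level of 1 probe set, from RMA as the authors ran it (Expression Console 1.1 from Affymetrix, as the submitters' processing notes list). No source used here names a genome build or array annotation. The table held 28846 rows with array medians from 7.68 to 7.75, and was not normalized again. Of these rows, 19572 had 1 gene symbol and 0 had several. Symbols were updated by Entrez identifier through a RefSeq table of GRCm38.p6. For 55 genes with more than 1 probe set, the probe set of highest mean was kept. Rows tagged neg (5222) served as a rough background.

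Knockout was compared with wildtype across all 10004 tested genes with limma's lmFit and eBayes (limma 3.58.1 under R 4.3.3) and Benjamini-Hochberg adjustment, after a test on simulated data. Genes under the filter were compared by an exact permutation test. Replicates were numbered in accession order, which pairs nothing, and the number of arrays limits the precision. Members, gene lists and tests were chosen with earlier results of these data known, so no test was run over a list as a whole. Named were B2m, the members, up to 3 genes of each wider list with the smallest unadjusted p, and the 4 genes of nearest profile. The alternatives changed the filter, prior, weights, normalization, probe sets, gene span trend, neighbours of B2m and the arrays used.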

Additional observations from a re-analysis of the deposited data

Results flagged for a closer look

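In the 4 knockout arrays, 1 value stood far from the other 3 for 2 of the 10 genes examined in this way, B2m and the 9 antioxidant genes with a probe set. Prdx2 was 12.08 in knockout replicate 1, against 11.96 to 11.97 in the other 3, a gap of 0.897 of the range. Sod1 was 12.62 in knockout replicate 4, against 12.77 to 12.80 in the other 3, a gap of 0.830 of the range. Chance alone marks about 1 in 20 such groups.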

How the results depend on the processing

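No paired analysis was possible because the labels give no replicate numbers. The number of called genes was 5, against 0 with B2m and its neighbours left out of the limma fit (1171 at an unadjusted p under 0.05), 2 without wildtype replicates 1 and 2, and 2 to 22 when each array was left out in turn (2 without wildtype replicate 1, 2 without wildtype replicate 2 and 22 without wildtype replicate 3). None of the 7 tested members was called under any of 18 alternatives. Without wildtype replicates 1 and 2 the medians were 0.0134 for the members, 0.0599 for the wider lists and 0.058 for the NADPH oxidase, and the differences of Gpx1 and Sod2 turned to -0.00194 and -0.0601, with 1 wildtype array left whose spread was taken to be that of the knockout arrays. Removing the trend on gene span gave 0.0598 for the wider lists. Leaving out each array in turn, the Gpx4 unadjusted p was 0.129 and 0.0724 without wildtype replicates 1 and 2, and 0.0610 and 0.0681 without knockout replicates 1 and 2. That of Txn1 was 0.0749 without wildtype replicate 1. The cause of these changes was not tested. Signal over background limits Nqo1 and Gclm.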
